A study of Caenorhabditis elegans with 34 samples.

Results

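Whole larvae of the third larval stage (L3) were compared with whole embryos of the nematode Caenorhabditis elegans. Of 30 RNA-seq libraries in the count table, 5 came from undissociated animals of these stages, namely embryo replicates 2 and 3 and L3 replicates 1, 2 and 3. They were chosen by stage and by fraction, and no measured value entered the choice. The question put to them here was how the transcript population of the intact animal differed between embryo and L3, apart from any enzyme treatment used to free cells. Each library was made from poly(A)-selected RNA of a 10 µl pellet of packed animals that had been washed but not dissociated. All were of strain JM149, whose transgene caIs71 carries GFP fused to the histone HIS-2B under the elt-2 promoter, with an unc-54 3′UTR, beside rol-6(su1006). The transgene was therefore shared by both stages and by every other library of the series. The series' design text calls the embryos mixed, so embryos of several ages may have been averaged, although cultures were synchronised before harvest. The remaining 25 libraries came from L1 larvae, from dissociated unsorted cells, and from sorted cells with (GFP-positive) or without (GFP-negative) the fluorescent marker.

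Embryos of this species develop inside an eggshell without feeding. They start from RNA loaded by the mother, divide rapidly, and then form tissues. L3 larvae feed on bacteria, grow between moults that each replace the collagen cuticle, and hold an expanding germ line. elt-2 encodes a GATA transcription factor that is active in the intestine, the organ that digests food and stores nutrients, so the GFP marks intestinal nuclei. rol-6 encodes a cuticle collagen, and the su1006 allele is a dominant marker that makes larvae and adults roll.

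The rows of the table are not paired with genes in the files used here, and row order was not used to assign any. Rows stand for genes below and are named only by number. Stage and tissue could therefore not be checked against marker genes, and pathways are not described. RNA was measured in bulk and relative to each library's total, so a lower level need not mean a smaller amount of RNA. Fewer cells of a type, less RNA per cell and a larger share taken by other rows cannot be told apart.

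The embryo libraries held 38662159 and 32772210 counts, and the L3 libraries 20537830, 25494842 and 21424116. Depth was thus higher in every embryo library than in any L3 library, although the summed counts were close, with 71434369 for embryos and 67456788 for L3. Levels are given below as CPM, the counts of a row relative to a common library total, with libraries scaled by the trimmed mean of M-values (TMM). Rows with at least 1 CPM numbered 12534 and 12065 in embryos, a mean of 12300 ± 332 (SD, n = 2), and 12868 ± 46.4 (SD, n = 3) in L3. Replicates correlated across rows on the log2 CPM scale at 0.981 in embryos and at 0.979 to 0.987 in L3, whereas pairs of libraries from different stages correlated at 0.645 to 0.684. Between replicates 4.16 to 10.7% of rows lay more than 2-fold apart, and between stages 59.4 to 67.5%. No pair of replicates agreed within sampling noise, since chi-square per degree of freedom was at least 32.8. The labels call the replicates biological but do not state whether they came from separate cultures. The p-values therefore measure only spread between libraries of a group. That spread was estimated jointly over all groups of the series, cell fractions included, and not from these 5 libraries alone.

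Over 50% of the tested rows were called between the stages, in both directions. Of 16758 rows tested, 4374 were higher in L3, which is 26.1% of all rows tested, and 4802 were lower, which is 28.7%. Together 9176 rows, 54.8%, were called by edgeR's quasi-likelihood test at a Benjamini-Hochberg adjusted p under 0.05. The higher rows had a median log2 fold change of 3.10 with a median standard error of 0.77, and the lower rows one of -2.07 with a median standard error of 0.42. With rows at 0 in a stage set to their bound against 3 counts over that stage, these medians were 3.08 and -2.06. The median over all tested rows was -0.02.

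The groups of libraries did not overlap for 13425 rows, 80.1% of those tested. Every L3 library lay above both embryo libraries for 39.8% of tested rows and below them for 40.3%. Among rows called higher, 4365 of 4374 did not overlap, and among rows called lower 4784 of 4802, but neither did 4276 of the 7582 uncalled rows. The number called higher rested in part on embryo replicate 3, since 2797 rows were called higher without that library. A test against a minimum change of 2-fold called 6108 rows, 3083 of them higher and 3025 lower. Scaling by library totals alone gave 3623 higher and 5750 lower rows and moved the median of all rows from -0.02 to -0.35, and scaling by DESeq2-type size factors moved it to 0.18.

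**Figure D1:**
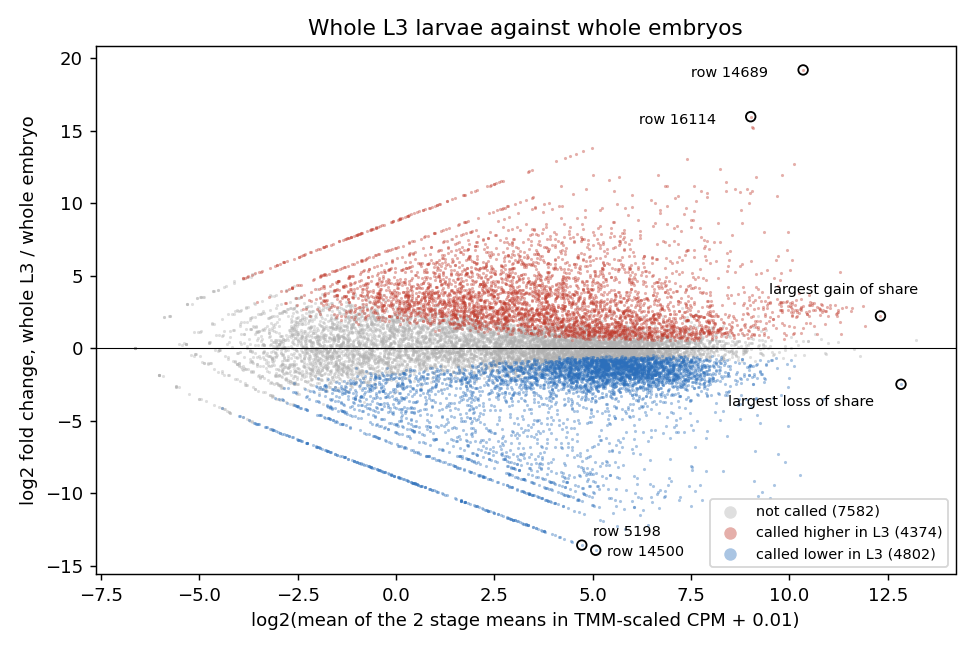
Each point is 1 of 16758 tested rows, with the log2 of its count level averaged over both stages on the x axis and its log2 fold change in L3 over embryo on the y axis. The 4374 rows called higher are red, the 4802 called lower are blue and the 7582 not called are grey. Straight diagonal lines of points are rows with 0 or few counts in one stage, and circles mark the rows described singly in the text.

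Among called rows the sizes of the changes differed between the directions. Precision differed too, with median standard errors of 0.77 for higher and 0.42 for lower rows, and its part in these sizes was not tested. Fitted on the compared libraries alone, the median log2 fold changes were 2.46 and -1.84. Of the higher rows 3268, or 74.7%, rose by at least 4-fold, against 2533, or 52.7%, of the lower rows. Changes of at least 16-fold were found for 1447 higher rows, 33.1%, and 1178 lower rows, 24.5%. At the extreme the order turned. Changes of at least 256-fold were found for 208 higher rows and 457 lower rows, or for 155 and 344 with rows at 0 held at their bound. The lower rows thus comprised many modest decreases together with a long tail of near-complete losses, and the quartiles of their log2 fold change were -3.91 and -1.38, against 1.98 and 4.64 for the higher rows.

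Calls were more frequent among rows with more counts. Of rows averaging under 1 CPM over the libraries 36.2% were called, and of those at 1 to 10 CPM 52.0%. Of rows at 10 to 100 CPM 59.9% were called, with 34.2% lower and 25.7% higher. Of rows at 100 CPM or more 67.6% were called, and there the directions were nearly even, at 33.4% higher and 34.2% lower. In the 10 to 100 CPM band the median log2 fold change was -1.66 for lower rows and 2.61 for higher rows. At 1 to 10 CPM the balance was the other way, with 29.3% higher and 22.7% lower.

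The changed rows made up most of the counts at both stages. Rows called higher in L3 held 16.2% and 14.2% of all counts in the embryo libraries and 62.8%, 60.8% and 59.8% in the L3 libraries. Rows called lower held 51.5% and 53.2% in embryos and 10.6%, 11.5% and 12.4% in L3. The stages were far apart on both measures, with no overlap, which the calls themselves require in direction but not in size. Uncalled rows held 32.3% and 32.7% in embryos and 26.6%, 27.7% and 27.8% in L3.

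Counts were concentrated on fewer rows in L3. In embryos 953 and 955 rows sufficed to hold 50% of the counts, and in L3 361, 451 and 440 rows. The 100 rows with the most counts held 17.9% and 16.1% in embryos and 29.3%, 26.1% and 26.2% in L3. The top 10 rows did not show this, with 5.97% and 4.48% in embryos and 6.14%, 5.53% and 5.83% in L3. The greater concentration in L3 therefore lay in rows below the top 10.

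**Figure D2:**
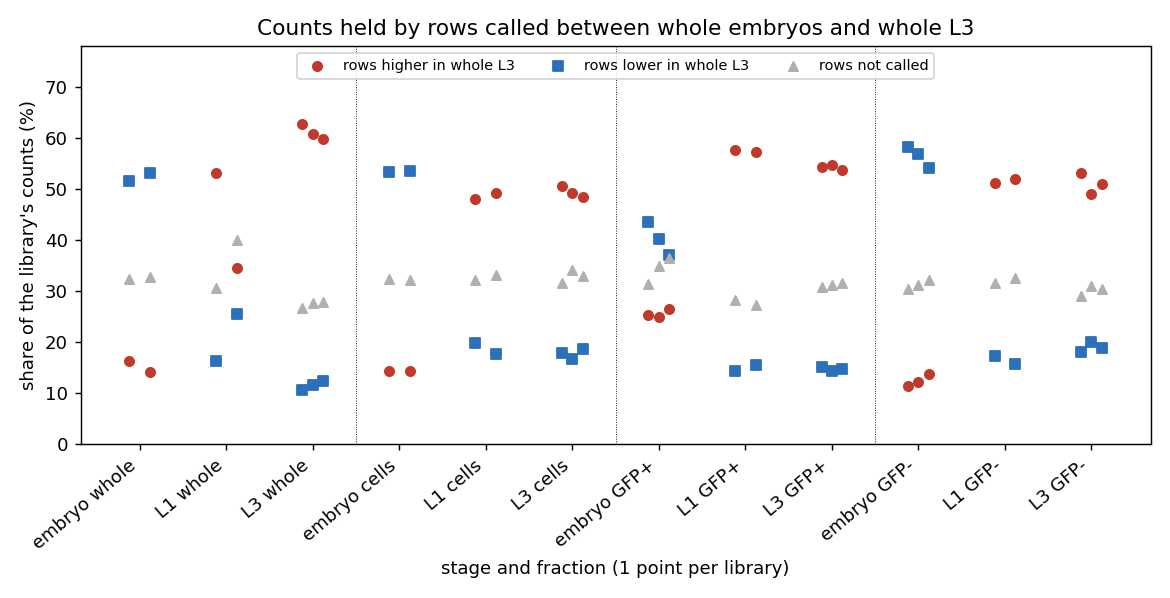
The y axis gives the percentage of each library's counts held by the rows called higher, called lower or not called between whole embryos and whole L3, and each point is 1 library of the stage and fraction on the x axis. Higher rows held 14.2 to 16.2% in whole embryos and 59.8 to 62.8% in whole L3, and the L3 cell fractions also lay far above the embryo fractions.

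The single rows with the largest changes went from nothing or almost nothing to high levels, or the reverse. Rows averaging 10 CPM or more across these 5 libraries were ranked by log2 fold change, and those at each end are given by number. Row 14689 had 0 counts in both embryo libraries and 3387, 2189 and 2251 CPM in the L3 libraries, a mean of 2609 ± 674 CPM (SD, n = 3). All L3 libraries were high and neither embryo library held a read, although 3 counts over both embryo libraries correspond to only 0.0349 CPM. The row was at least 74700-fold higher in L3 against that floor, with a fitted log2 fold change of 19.20 ± 2.19 (SE) and an edgeR adjusted p of 7.97e-07. A fitted value against a group at 0, like the SE derived from it, depends on the prior count and is no bound.

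Row 14689 was also nearly silent in whole L1 larvae, with 2.38 and 0.740 CPM. In L3 it was high in each fraction, at 679 ± 370 CPM (SD, n = 3) in dissociated cells, 1085 ± 1075 in GFP-positive and 370 ± 172 in GFP-negative cells. The GFP-positive values were 349, 2318 and 587 CPM and the GFP-negative values 567, 285 and 257 CPM, so the fractions overlapped. The L3 sort gave a log2 difference of 1.55 ± 0.82 (SE), at an edgeR adjusted p of 0.146, which did not pass the threshold.

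Row 16114 had 0 and 1 counts in the embryo libraries and 1370, 914 and 825 CPM in the L3 libraries, a mean of 1036 ± 292 CPM (SD, n = 3). Again every L3 library was high and both embryo libraries were at or near 0. The ratio of scaled counts was 87750, with a 95% interval from counting error alone of 15700 to 3470000. The fitted log2 fold change was 15.98 ± 2.1 (SE), at an edgeR adjusted p of 1.99e-06. In whole L1 larvae it had 0.0857 and 0.326 CPM, so this row too was high in L3 and near 0 at both earlier stages.

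Row 14500 had 83.5 and 51.4 CPM in the embryo libraries, a mean of 67.4 ± 22.7 CPM (SD, n = 2), and 0 counts in all 3 L3 libraries. The groups lay apart, with reads in both embryo libraries and none in L3. It was at least 1450-fold lower in L3 against the floor of 3 counts over the group, with a fitted log2 fold change of -13.93 ± 1.68 (SE) and an edgeR adjusted p of 4.84e-06. In dissociated embryo cells it varied widely, with 7.0 and 55.1 CPM.

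Row 5198 had 57.4 and 48.1 CPM in the embryo libraries, a mean of 52.8 ± 6.59 CPM (SD, n = 2), and 0 counts in all 3 L3 libraries. It was at least 1130-fold lower in L3 against the same floor, with a fitted log2 fold change of -13.58 ± 1.31 (SE) and an edgeR adjusted p of 1.44e-07. In whole L1 larvae it had 0.377 and 1.69 CPM, and row 14500 had 0.154 and 1.15 CPM. Both rows were thus at low levels in L1 as well, with L1 replicate 3 above L1 replicate 1.

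**Figure D3:**
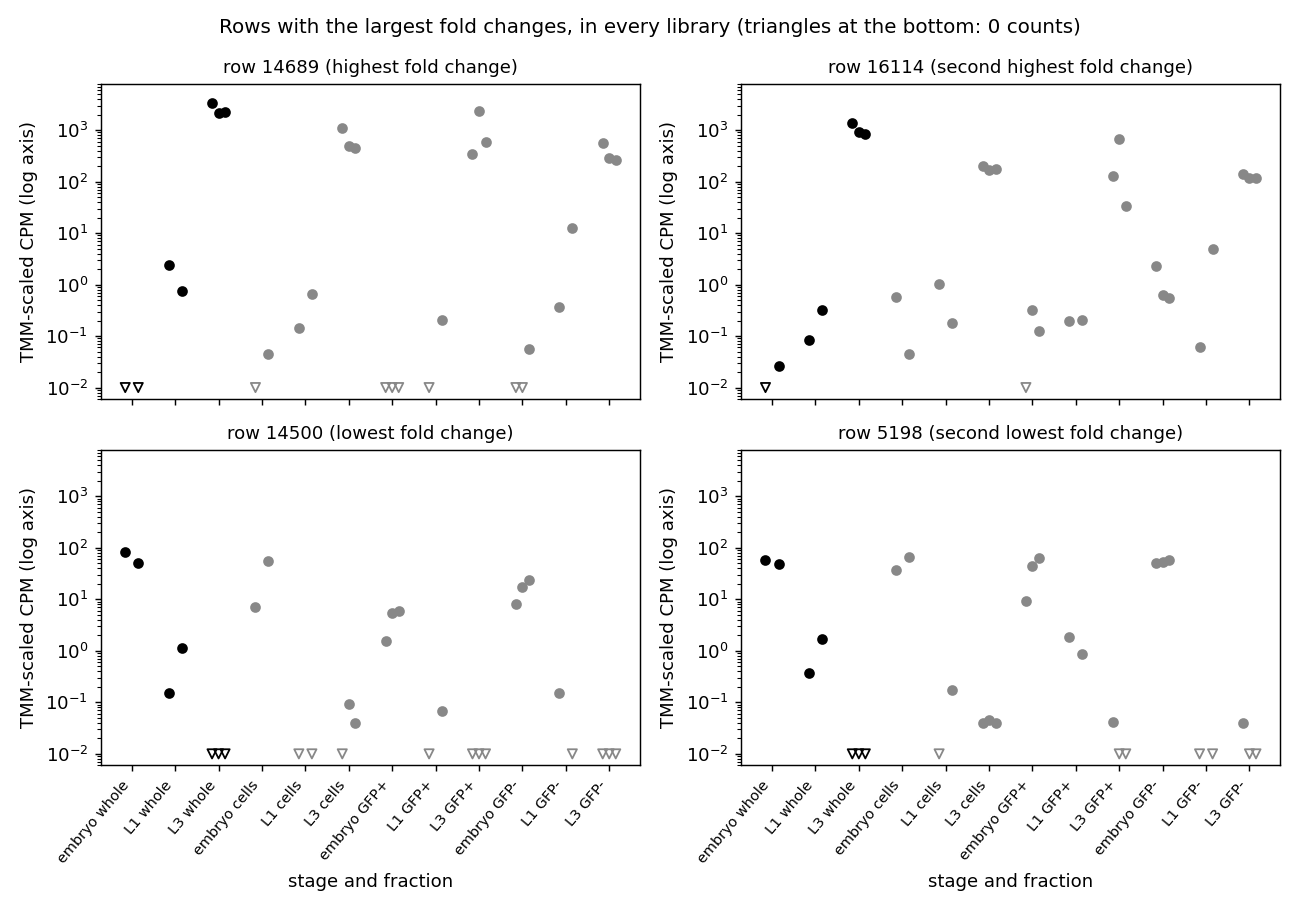
Each panel shows the TMM-scaled CPM of 1 row on a log axis in all 30 libraries, by stage and fraction, with black points for whole animals, grey points for cell fractions and open triangles for libraries with 0 counts. Row 14689 lies at 2189 to 3387 CPM in whole L3 and at 0 in whole embryos, and rows 14500 and 5198 lie above 48 CPM in whole embryos and at 0 in whole L3.

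The 3 rows that weighed most in the count totals were singled out after their values were seen, and are identified by their place there. The row with the most counts in embryos held 1.76% and 1.23% of counts there and 0.104%, 0.219% and 0.312% in L3, which was also the largest loss of share of any row. Its log2 fold change was -2.48 ± 0.94 (SE), at an edgeR adjusted p of 0.0295. The call was not stable, since edgeR's adjusted p rose to 0.108 without L3 replicate 1 and 0.0736 without L3 replicate 2. With single libraries left out the log2 fold change ran from -2.80 to -2.09. Spread was estimated over all groups. This row held 5.35% and 0.746% of counts in dissociated embryo cells and 14.5%, 1.58% and 1.05% in embryo GFP-positive cells. The part of those libraries in its SE was not tested.

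The row with the largest gain of share held 0.166% and 0.261% of counts in embryos and 0.793%, 0.775% and 0.829% in L3. All L3 values lay above both embryo values, and the log2 fold change was 2.23 ± 0.32 (SE), and edgeR's adjusted p was 5.52e-06. The row with the most counts in L3 held 1.16%, 0.936% and 1.16% there, but also 1.22% and 0.654% in embryos. Its groups overlapped and its log2 fold change of 0.56 ± 0.33 (SE) had an edgeR adjusted p of 0.156. Without embryo replicate 2 that p was 0.0217, and under DESeq2 it was 0.0223.

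Beyond these single rows, the 50 highest fold changes among the 2474 higher rows averaging at least 10 CPM ran from 10.05 to 19.20 on the log2 scale. Their mean level in L3 ran from 17.8 to 2609 CPM with a median of 233 CPM, and none exceeded 1.15 CPM in embryos. The 50 lowest, of 3200 eligible lower rows, ran from -13.93 to -10.51 and had 25.7 to 361 CPM in embryos with a median of 51.7 CPM. None of them exceeded 0.197 CPM in L3. These rows were ranked by the change itself, and 10 of the 50 highest and 15 of the 50 lowest were at 0 in the low stage.

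Rows seen at a single stage were few. In both embryo libraries 169 rows had 0 counts, and 131 of them were called higher in L3. In all L3 libraries 289 rows had 0 counts, and 246 of them were called lower. Requiring at least 1 CPM in every library of the other stage left 61 rows that appeared and 152 that disappeared. The 61 rows had a median of 4.10 CPM in L3 and held 0.255 to 0.379% of the L3 counts, and 17 of them reached 10 CPM. The 152 rows had a median of 6.26 CPM in embryos and held 0.138 to 0.239% of the embryo counts, and 55 of them reached 10 CPM.

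Both sets were traced in L1. Having a read there is no trait of these rows, since 284 and 107 of all 16762 rows had 0 counts in whole L1 replicates 1 and 3. All 61 appearing rows had at least 1 read in whole L1 larvae, with a median of 1.5 CPM, and 15 had at least 1 CPM in both L1 libraries. Of the 152 disappearing rows 148 had a read in whole L1 larvae, but their median there was 0.155 CPM and 1 row had at least 1 CPM in both libraries. In dissociated L3 cells 67 of the 152 had a read. Of all 16762 rows 736, 580 and 470 had 0 counts in dissociated L3 replicates 1, 2 and 3. A count of 0 in 3 whole L3 libraries thus set an upper limit of 0.0466 CPM over the group rather than showing absence.

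Few rows could be shown to have held their level within 2-fold. A 95% interval of the log2 fold change lying wholly within 2-fold was found for 1142 rows, 6.81% of those tested. They included 1133 of the 7582 uncalled rows, or 14.9%, so for most uncalled rows a 2-fold change in some direction was not excluded by the data. The median half-width of the interval over uncalled rows was 1.43 on the log2 scale. The rows within 2-fold held 12.9% and 13.4% of counts in embryos and 9.75%, 10.3% and 10.3% in L3.

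Whole L1 larvae were used to place the change in time, on log2 CPM with 0 set at the embryo mean and 1 at the L3 mean of each row called and changed at least 2-fold. In L1 replicate 1 the median position was 0.96 for 4148 higher rows and 0.85 for 4254 lower rows. In L1 replicate 3 it was 0.67 and 0.70. Both libraries therefore lay nearer to L3 than to embryo for most rows, but by different amounts. Higher rows held 53.0% of the counts in L1 replicate 1 and 34.6% in L1 replicate 3, and lower rows 16.4% and 25.5%. Across rows L1 replicate 1 correlated at 0.886 with the L3 mean and 0.643 with the embryo mean, and L1 replicate 3 at 0.865 and 0.796. The L1 replicates came from different sequencing instruments, a HiSeq X-ten for replicate 1 and a NovaSeq for replicate 3 and for all embryo and L3 libraries. Replicate and instrument cannot be told apart within L1.

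The same stage change was then measured in libraries that share none with the whole animals. Dissociated cells of embryos had been freed with chitinase and pronase, and those of L3 with SDS-DTT and pronase, so in these libraries the protocol and the stage cannot be told apart. In dissociated unsorted cells 22.5% of all rows were called higher in L3 and 26.2% lower. Of the 4374 rows higher in whole L3, 2862, or 65.4%, were called higher there and 72 lower. Of the 4802 lower rows, 3479, or 72.4%, were called lower and 16 higher. The medians were smaller than in whole animals, at 2.16 for the higher rows and -1.63 for the lower rows.

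In GFP-positive cells, where 30.7% of all rows were called higher in L3 and 29.6% lower, 2984 of the higher rows, or 68.2%, were called higher and 3388 of the lower rows, or 70.6%, lower. In GFP-negative cells, where the shares over all rows were 28.3% and 28.9%, the corresponding counts were 3044, or 69.6%, and 3406, or 70.9%. With each comparison fitted on its own libraries, 55.4% of higher rows and 47.9% of lower rows were called alike in GFP-positive cells. The shares over all rows tested in that fraction's own fit were then 26.4% higher and 25.4% lower. Changed rows not tested there count as not called. In GFP-negative cells the overlaps were 56.7% and 65.4%, against 30.4% and 33.2% of all rows so tested. In dissociated cells they were 62.6% and 64.5%, against 27.7% and 28.7%. Calls in the same direction in all 3 cell fractions were found for 2050 higher rows, or 46.9%, against 15% of all tested rows called higher in those 3 fractions. For lower rows the count was 2690, or 56.0%, against 18.5%. No call in the same direction in any cell fraction was found for 564 higher rows and 708 lower rows. Without embryo whole replicate 3, 73.6%, 70.8% and 77.3% of the higher rows were called higher in dissociated, GFP-positive and GFP-negative cells. The shares over all rows in that run were 22.0%, 30.3% and 27.95%.

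**Figure D4:**
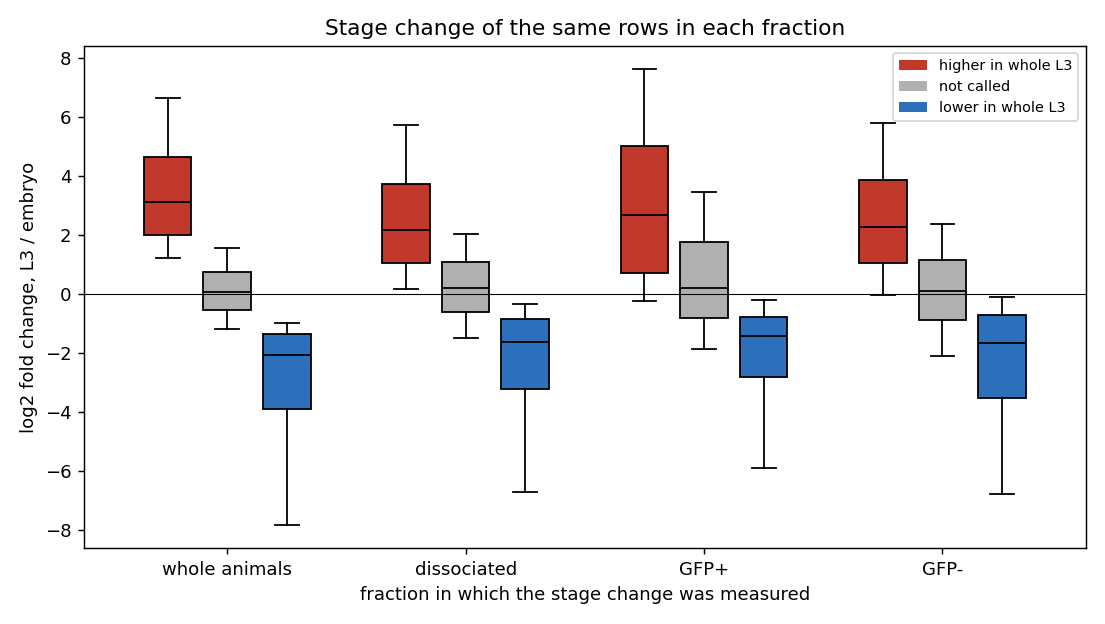
Boxes give the quartiles and median, and whiskers the tenth and ninetieth percentiles, of the log2 fold change of L3 over embryo in each fraction, for rows called higher, not called or called lower in whole animals. Whole animals chose the classes, so their boxes are a description. In the other fractions the higher rows had medians of 2.16, 2.66 and 2.27 and the lower rows -1.63, -1.44 and -1.66.

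The shares called again were highest for the largest changes. Of rows raised 64-fold or more in whole L3, 90.3% were called higher in dissociated cells, 94.8% in GFP-positive and 81.2% in GFP-negative cells. Of rows raised under 2-fold, 56.0% were called higher in dissociated cells and 67.1% in GFP-negative cells but 31.2% in GFP-positive cells. Rows lowered 64-fold or more were called lower in 93.4%, 81.4% and 90.5% of cases. All of the 50 highest rows were called higher in dissociated and in GFP-positive cells and 49 in GFP-negative cells, and the 50 lowest were called lower in 50, 47 and 49 cases.

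Some of the changed rows were called on one side of the sort. Of the higher rows 698 were called higher in GFP-positive but not in GFP-negative cells, and 758 the reverse. For the lower rows these numbers were 590 and 608. Over all tested rows, 30.7% were called higher in GFP-positive cells, 28.3% in GFP-negative cells and 18.8% in both. The corresponding shares called lower were 29.6%, 28.9% and 20.2%. Calls in a single sorted fraction thus occurred over all tested rows as well, and are no trait of the changed rows alone. A call on one side and not the other is no test of a difference. The test of the difference between the stage changes in GFP-positive and GFP-negative cells called 3486 of all rows, 20.8%, with 11.1% more positive and 9.72% more negative in GFP-positive cells. Of the rows higher in whole L3, 660, or 15.1%, changed more positively in GFP-positive cells and 732, or 16.7%, more negatively. Of the lower rows 413, or 8.60%, were more positive and 198, or 4.12%, more negative. The split over all calls depended on scaling, with 53.3% positive under TMM and 71.5% with totals alone. Without embryo whole replicate 3, 14.7% of the rows higher in whole L3 changed more positively in GFP-positive cells, against 10.5% of all rows.

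The change in whole animals differed from that in dissociated cells for 653 rows, 3.90% of those tested. It was more positive in whole animals for 472 rows, 2.82%, and more negative for 181 rows, 1.08%. The 472 rows had a median log2 change of 2.46 in whole animals and of -0.50 in dissociated cells, a gap that their choice by this difference requires in direction. Of these rows 430, or 91.1%, were called higher in L3 GFP-positive cells than in their GFP-negative counterparts, and 0 were called lower, where 18.8% and 19% of all rows were so called. The 181 rows had medians of -1.98 and 0.50, and 122 of them, or 67.4%, were called lower in GFP-positive L3 cells. Calls in opposite directions in whole animals and dissociated cells were found for 88 rows, of which 86 had a called difference.

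The number of rows in this difference was unstable. It fell to 107 without embryo whole replicate 3, to 142 without embryo whole replicate 2, to 142 without embryo dissociated replicate 1, and to 399, 373, 339 and 402 without L3 whole replicates 1 and 2 and L3 dissociated replicates 1 and 3. The direction split also moved with scaling, from 72.3% more positive under TMM to 34.6% with totals alone. The share of the more positive rows that were called higher in L3 GFP-positive cells was 94.5% with totals alone, 83.1% without embryo whole replicate 3, and 72.4% when each comparison was fitted on its own libraries, against 20.4%, 18.5% and 21.7% of all rows. The 21.7% is over the rows tested in the L3 sort's own fit, and members not tested there count as not called. The part of the dissociation protocol in this difference was not tested.

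The sorts of GFP-positive from GFP-negative cells, which share no library with whole animals, divided the changed rows. In the L3 sort 18.8% of all rows were called higher in GFP-positive cells and 19% lower. Of the rows higher in whole L3, 1611, or 36.8%, were called higher there and 282, or 6.45%, lower. Of the rows lower in whole L3, 310, or 6.46%, were called higher and 1640, or 34.2%, lower. Uncalled rows showed no such lean, with 16.1% higher and 16.6% lower. The share on the GFP-positive side of the L3 sort was thus above that over all rows for the rows that rose, and below it for the rows that fell.

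The embryo sort, where 18.8% of all rows were called higher and 26.1% lower in GFP-positive cells, leaned the same way. Of the rows higher in whole L3, 1589, or 36.3%, were called higher in embryo GFP-positive cells and 624, or 14.3%, lower. Of the rows lower in whole L3, 262, or 5.46%, were called higher and 2109, or 43.9%, lower. Higher calls made up 41.8% of the calls of this sort under TMM and 31.5% with totals alone. Fitted on its own libraries, this sort called 2994 rows higher and 1144 lower, so that the balance turned to 72.4% higher. When each comparison was so fitted, 14.2% of the rows lower in whole L3 were called lower in embryo GFP-positive cells. Over the rows tested in that sort's own fit the share was 7.83%, and changed rows not tested there count as not called. In the L1 sort, where 19.2% of all rows were called higher and 13.6% lower, 32.0% of the rows raised in whole L3 were called higher and 21.1% lower. For the rows lowered in whole L3 these shares were 9.56% and 8.52%, both under the shares over all rows. The L1 sort called 5500 rows, 32.8%, and 3531 without L1 GFP-positive replicate 1.

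Rows sorted alike at both ends of the interval moved apart in whole animals, where 26.1% of all tested rows rose and 28.7% fell. Of 1935 rows called higher in GFP-positive cells in both the embryo and the L3 sort, 1088, or 56.2%, rose in whole L3 and 104 fell, with a median log2 change of 1.62. They held 6.81% and 6.39% of counts in whole embryos and 12.9%, 14.9% and 14.9% in whole L3. Of 1577 rows called lower in GFP-positive cells in both sorts, 54 rose and 1112, or 70.5%, fell, with a median of -1.51. The 1577 rows held 17.0% and 17.6% of counts in whole embryos and 4.99%, 5.16% and 5.93% in whole L3. No library of one stage overlapped those of the other on either share. With each comparison fitted on its own libraries, the set lower in both sorts shrank to 481 rows. Of these 479 were tested in whole animals, where 14 rose and 388, or 81.0%, fell. The set higher in both sorts then held 1753 rows, of which 1746 were tested in whole animals. There 1145, or 65.6%, rose and 183, or 10.5%, fell. Over all rows, that fit of whole animals called 5607 rows higher and 5857 lower.

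The lean of the sorts varied with the size of the change. In the L3 sort 42.6% of rows raised 16 to 64-fold were called higher in GFP-positive cells and 1.27% lower, whereas of rows raised under 2-fold 23.1% were called higher and 26.5% lower. In the embryo sort the share called higher was 44.2% of rows raised 2 to 4-fold and 20.6% of those raised 64-fold or more. Of rows lowered 64-fold or more, 3.65% were called lower in the L3 sort, where their median whole-animal level was 0.0334 CPM, and 27.0% in the embryo sort, where it was 15.4 CPM. The part of these low levels in the shares was not tested.

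**Figure D5:**
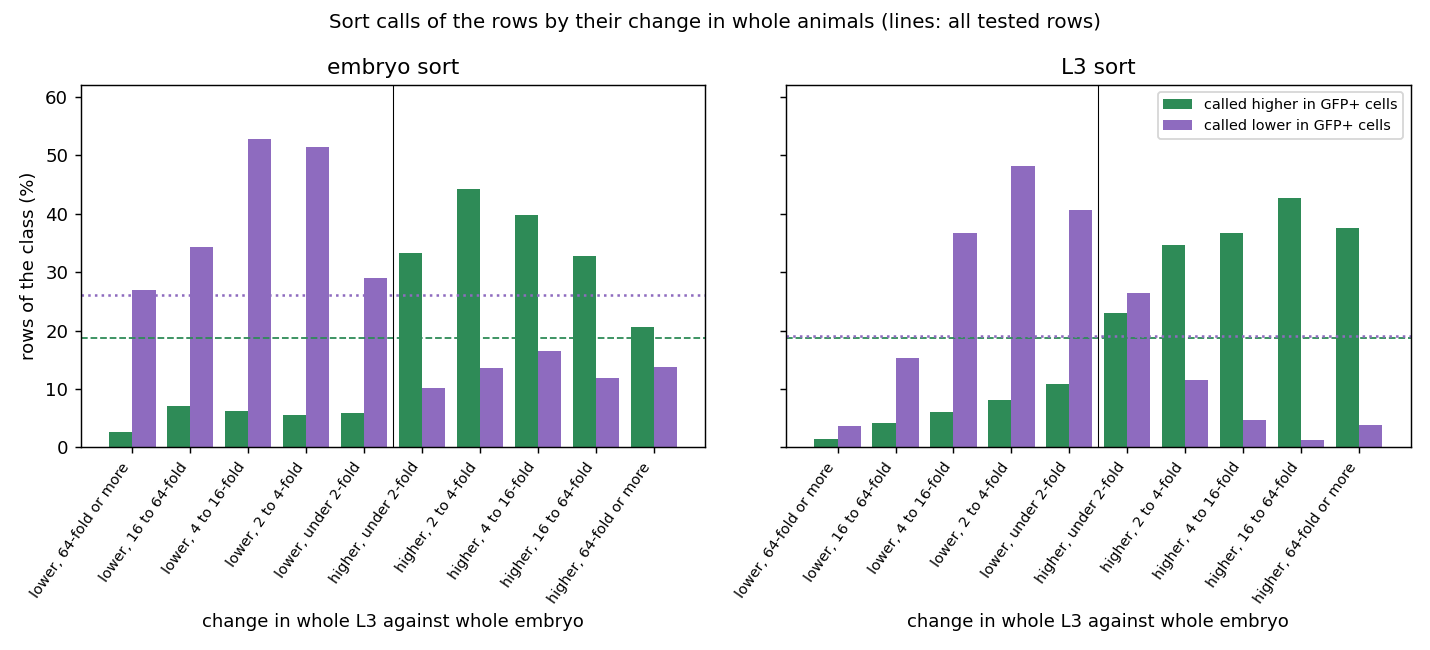
Bars give the percentage of rows called higher (green) or lower (purple) in GFP-positive cells relative to GFP-negative ones, in the embryo sort and in the L3 sort, for rows grouped by direction and size of their change in whole animals. Horizontal lines give the same percentages over all tested rows. In both panels green bars dominate among most classes of rows that rose, except those raised under 2-fold in the L3 sort, where 23.1% were called higher and 26.5% lower.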

How the data were processed

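Poly(A) RNA was sequenced as paired 150 bp reads. Per the submitters' processing notes, reads were handled with featureCounts 1.6.4 and DESeq2 1.28.1 as well as HISAT2 2.1.0, fastp 0.20.0, deepTools 3.2.0 and SAMtools 1.9, on build ce11, and their roles are not stated. The deposited table holds raw counts per row for 30 of 34 labelled libraries, in 16762 rows. L1 replicate 2, with 4 libraries, was not analysed here. Counting options are not given in the sources used here, so how reads were shared among overlapping genes, antisense genes or close paralogs is unknown. The authors' normalized and log-scale tables were not used.

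The counts were tested in R 4.3.3 with edgeR 4.0.16. Rows passed filterByExpr at a minimum count of 10, which kept 16758. Libraries were scaled by TMM, and a quasi-likelihood model with 1 mean for each of 12 groups was fitted to all libraries, leaving 18 residual degrees of freedom. Tests were two-sided F-tests with Benjamini-Hochberg adjustment over all tested rows, called at an adjusted p under 0.05. CPM used TMM-scaled library sizes, shares used raw totals, and log2 CPM had 2 as its prior count. Intervals from counts and the floor of 3 counts cover counting error only.

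The members and lists were chosen with earlier results of these data known. The planned gene and marker lists could not be applied, since rows carry no gene identifier. By rule, the text names the 2 called rows with the highest fold changes and the 2 with the lowest, among those averaging at least 10 CPM over the compared libraries. The test of the stage change in GFP-positive against GFP-negative cells was added after the data were seen, as were recounts of shared calls and leaving out single sorted libraries. Alternatives were limma 3.58.1 (voom), DESeq2 1.42.0, other scalings, filters, thresholds and sample sets, a replicate block, and each library left out. The procedure was tested on simulated data.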

Additional observations from a re-analysis of the deposited data

Results flagged for a closer look

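The stage change differed between whole animals and dissociated cells for 653 rows, by the edgeR test of the difference between both changes, which is why it is listed here. The stage change differed between GFP-positive and GFP-negative cells for 3486 rows, by the same kind of test. The first number fell to 107 without embryo whole replicate 3, and the second ranged from 2676 to 4119 with single libraries left out. What accounts for either difference was not tested.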

How the results depend on the processing

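No row called between whole embryos and whole L3 was called in the opposite direction under any alternative run. The count of 9176 calls stayed within 1.5 times under 18 of 19 alternatives, the exception being 6108 calls for a minimum 2-fold change; the fit on the compared libraries alone gave 11464. Leaving out single libraries gave 6598 to 8518 calls. Leaving out an embryo library leaves 1 sample at that stage, whose spread is then assumed to be like that of other groups. The difference between whole animals and dissociated cells moved from 653 to 132 at an adjusted p under 0.01, 1554 under DESeq2 and 1857 on the compared groups only, and to 107 to 599 with single libraries left out. The difference between GFP-positive and GFP-negative cells moved from 3486 to 1628 at an adjusted p under 0.01 and 2221 on the compared groups only. On the compared groups only the embryo sort gave 4138 calls and the L1 sort 3450, and the L1 sort gave 3531 to 5533 with single libraries left out. The cause of these shifts was not tested, apart from the stricter thresholds. Replicate numbers 2 and 3 are shared by both stages, but same-numbered libraries were not treated as pairs. Their deviations from the group means correlated at -0.01 and 0.13. With 2 embryo libraries the deviations of one mirror those of the other, so these values cannot decide whether replicates were paired. A replicate block gave 9183 calls over all libraries and 10907 on the compared libraries. Of rows under 1 CPM 36.2% were called, and depth itself was not varied.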

Other observations

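Neighbouring rows of the count table changed alike. The log2 fold change of whole L3 over whole embryo correlated at 0.36 between each row and the next, at 0.08 between rows 10 apart and at 0.01 between rows 1000 apart. These are descriptions over rows, which share all 5 libraries. The longest unbroken run of rows called higher held 17 rows, and the longest run called lower held 21. What orders the rows is not known here.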
